A study of Mus musculus with 64 samples.

Results

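Clone N is a mouse pancreatic ductal adenocarcinoma line, and its transcriptional response to fibroblasts was measured by comparing 4 libraries of clone N grown alone with 4 libraries of clone N recovered from coculture with fibroblasts. These were all the clone N libraries, 8 of 64 in the series, and they were identified by the culture named in their labels. Clone N is 1 of 7 clones (E, H, K, M, N, T and V) that were subcloned from a polyclonal line of a KPC mouse tumor, so each clone is 1 cell line of 1 animal. KPC tumors carry mutant Trp53 (R172H) among their alleles, with Cre expressed from the Pdx1 promoter, and the labels give a mixed C57BL/6 strain background. The study placed N in its metabolic group 2 with K, M and T, and E, H and V in group 1. The eighth line, KPC1, is a KPC line outside that grouping. Every line was grown as mono-culture and in direct coculture with fibroblasts for 48 h, after which tumor cells were taken by sorting for GFP, which they carried and the fibroblasts did not. The labels do not say whether mono-cultures passed the sorter, or whether the 4 replicates of a group were separate cultures, so the p-values measure only the spread between these libraries, which may be technical.

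Fibroblasts are the main stromal cells of pancreatic tumors. They deposit matrix and secrete growth factors, cytokines and metabolites, and tumor cells read these through integrins, receptor tyrosine kinases and cytokine receptors. Programs that tumor cells commonly adjust in such company include adhesion and matrix genes, interferon and NF-kB targets, lipid synthesis under the SREBP factors, and the integrated stress response (ISR), in which phosphorylation of eIF2 raises translation of ATF4, a factor for genes of amino acid synthesis and transport.

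The clone N libraries held 11661214 to 19756478 counts in genes, and the 64 libraries 11178721 to 21333683. Levels are given as CPM (counts scaled to library size) after scaling by the trimmed mean of M values. The sample numbers in the labels form 2 series, and coculture replicate 1 is the only clone N library of the smaller one. In clone N, keratin genes Krt8, Krt18 and Krt19, Sox9 and Cdh1 were expressed, whereas Epcam was at most 0.742 CPM and Muc1 and Krt7 were at most 5.83 CPM in any library. The summed level of 18 fibroblast markers was 380.1, 504.9, 349.8 and 434.8 CPM in mono-culture replicates 1 to 4. In coculture replicates 1 to 4 it was 839.9, 1957, 1723 and 2427 CPM, a 4.16-fold higher mean. An exact permutation test that treated the libraries as unpaired gave a two-sided p = 0.0286, the smallest that 4 against 4 can give. Of the 18 markers, 5 (Postn, Pdpn, Dcn, Lum and Thy1) had 0 counts in clone N mono-culture, and 14 of the 16 tested were higher in coculture, while Col3a1, Fbln2, Prrx1, Pdgfra, Pdgfrb and Twist1 were already expressed by clone N alone at 11.2 CPM or more in every library. Coculture means of this sum in the other 7 lines were 1077 to 2441 CPM. The part that fibroblast RNA plays in the differences below was not tested. Summed leukocyte markers (45.7 to 57.1 CPM alone and 50.6 to 72.0 CPM in coculture, p = 0.171) and endothelial markers (1.28 to 2.20 and 1.65 to 2.04 CPM, p = 0.229) gave no difference that passed the same exact test, with Cd3e, Cd79a and Tie1 at 0 counts. The summed level of 8 pancreatic ductal tumour cell markers was lower in coculture, at 4077, 3573, 3610 and 4058 CPM alone and 3560, 3521, 3359 and 3218 CPM in coculture (exact permutation p = 0.0286). Its members did not move together: of the 7 tested, 1 rose and 2 fell (20% and 17.3% over all genes). Krt8 (1204 to 1397 CPM alone, 784 to 1180 CPM in coculture) and Krt19 (531 to 781 and 353 to 506 CPM) were lower. Cdh1 rose (88.7 to 111 and 106 to 169 CPM). The ranges of Krt18 (1390 to 1699 and 1606 to 1693 CPM) and Sox9 (175.5 to 300 and 196 to 404 CPM) overlapped. In such bulk libraries, fewer cells of a type and less RNA per cell cannot be told apart.

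**Figure D1:**
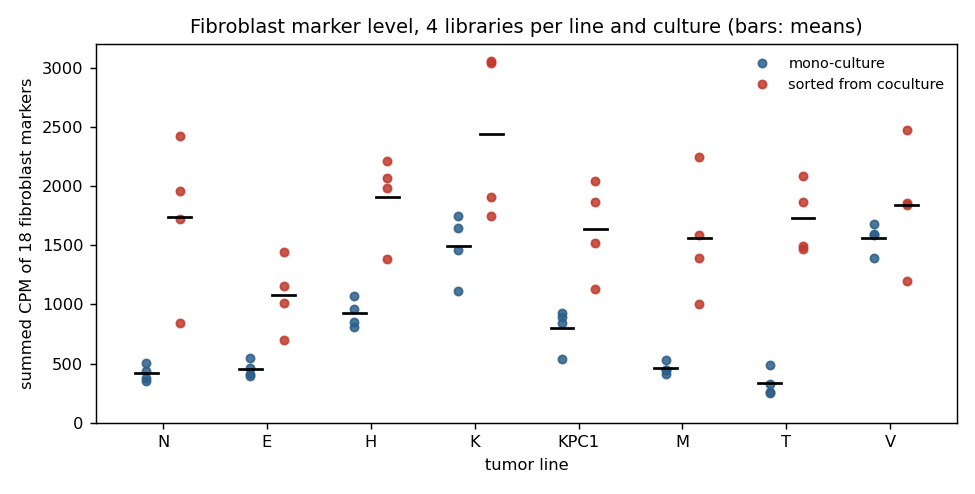
Summed level of 18 fibroblast markers (CPM, linear axis) in each library of clone N and of the 7 other lines, in mono-culture (blue) and after sorting from coculture (red), with black bars at the mean of 4 libraries. In clone N all 4 coculture libraries lie above all 4 mono-culture libraries, coculture replicate 1 being the lowest of them at 839.9 CPM.

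To ask which genes changed in clone N, the cultures were compared gene by gene in a model fitted to all 64 libraries (edgeR quasi-likelihood test, Benjamini-Hochberg adjusted p under 0.1, 14134 genes tested). Of these genes, 2826 (20%) were higher and 2451 (17.3%) were lower in coculture, 5277 (37.3%) in all. The libraries of the 2 cultures did not overlap for 3162 genes (22.4%). Changes of at least 1 on the log2 scale numbered 759 upward (5.37%) and 628 downward (4.44%), 1387 in all (9.81%). Most of the larger rises began from little expression: 524 of the 759 genes were under 1 CPM in clone N mono-culture, and 258 of them were under 1 CPM in mono-culture in all 8 lines. Only 124 of these rises, against 243 of the falls, were in genes at 5 CPM or more in clone N grown alone. Fitted to the 8 clone N libraries alone the test called 3326 genes, and 5452 when the replicate number was added as a block.

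Among the largest rises were matrix genes that fibroblasts express, and those described here also rose in every other line. Postn, the matricellular protein periostin, was at 0 CPM in all 4 mono-culture libraries and at 17.4, 81.7, 70.9 and 108 CPM in coculture, at least 1180-fold higher against a floor of 3 counts over the 4 libraries. Col1a2, a fibrillar collagen chain, was at 0, 0.0742, 0.0815 and 0.356 CPM alone and 107, 259, 221 and 329 CPM in coculture. Its partner chain Col1a1 was at 10.46 ± 2.34 CPM (SD, n = 4) and 339 ± 139.9 CPM, and the small proteoglycan Bgn at 7.39 ± 3.94 and 206 ± 99.5 CPM. The 2 cultures did not overlap for any of these genes, and each was called upward in all 7 other lines. Coculture replicate 1, the library with the lowest fibroblast marker sum, was also the lowest for all 4 genes. Postn, Col1a2 and Col1a1 are themselves among the 18 markers of that sum, so for them this order is partly built in.

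Other genes rose in clone N and in several other lines. Ankrd1, a target of the Hippo effectors YAP and TAZ, went from 45.4, 41.97, 47.9 and 68.6 CPM alone to 162, 112, 245 and 236 CPM in coculture, a log2 fold change of 1.89 ± 0.29 (SE; adjusted p = 2.52e-06), and was called upward in 6 of the 7 other lines. Every coculture library was above every mono-culture library. The monocyte chemokine Ccl2 (log2 fold change 1.46 ± 0.29), the ERBB3 ligand Nrg1 (1.24 ± 0.23) and the NF-kB feedback inhibitor Tnfaip3 (1.09 ± 0.26) rose as well, and were called upward in 6, 7 and 6 other lines. The tight junction claudin Cldn6 rose from 31.96 ± 18.9 to 94.8 ± 12.3 CPM and was called upward in 3 other lines and downward in 1. The transcription factor gene Myc rose from 378 ± 46.99 to 566 ± 125 CPM (0.58 ± 0.18, adjusted p = 0.00998). The other lines changed by a mean of 0.88 on the log2 scale, and the difference did not pass its test.

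Several of the genes that fell in clone N also fell in other lines. The glutathione transferase Gsta1 (12.7 ± 7.89 to 0.721 ± 0.233 CPM), the glucuronosyltransferase Ugt2b34 (26.8 ± 20.6 to 2.17 ± 1.95 CPM) and Gclc, which makes the glutathione precursor (210.1 ± 37.7 to 104 ± 2.88 CPM), fell in clone N and were called downward in 4, 4 and 5 other lines, while Gclc was called upward in 2 (H and V). The metallothionein Mt2 fell from 27.1 ± 15.4 to 2.81 ± 0.940 CPM and was called downward in 4 other lines and upward in 1. The zinc exporter Slc30a1 fell from 8.01 ± 4.67 to 0.924 ± 0.599 CPM and was called downward in 5 and upward in 2. The fall of Slc30a1 was larger than the mean of the other lines by -2.20 ± 0.61 on the log2 scale (adjusted p = 0.0262), although the other lines ranged from -3.21 to 3.11. Wnt4, a Wnt ligand, fell from 109 ± 83.5 to 19.4 ± 9.71 CPM, and the BMP targets Id2 and Id1 had log2 fold changes of -2.48 ± 0.45 and -1.48 ± 0.28. All 3 were called downward in all 7 other lines. Krt19, the ductal keratin, was at 781, 679, 531 and 654 CPM alone and 375, 506, 359.9 and 353 CPM in coculture, a log2 fold change of -0.73 ± 0.23, and the epithelial factor Grhl2 at 4.99 ± 2.03 and 1.22 ± 0.261 CPM. Of 11 tested transcripts encoded in mitochondrial DNA, 6 fell and 0 rose (17.3% and 20% over all genes), with the complex I subunits mt-Nd1 at -0.62 ± 0.18 and mt-Nd2 at -0.77 ± 0.23.

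The question specific to clone N was how its response differed from the mean response of the other 7 lines. Among the 5277 genes called in clone N, 4989 (94.5%) had the same sign in the mean of the others. The difference between the clone N response and that mean was called for 980 genes (6.93%), 539 (3.81%) with clone N higher and 441 (3.12%) with clone N lower. A "higher" difference includes genes that fell less in clone N than elsewhere, and for 486 of the 980 genes the clone N response itself did not pass its test. In 41.9% of the 980 genes, the clone N response lay between the lowest and highest of the other lines. The same contrast built for each other line in turn called 1854 (H) to 4812 (K) genes, so clone N had the fewest. These 8 contrasts share libraries and are given as a description.

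The count of differences depended on single libraries, here and below left out 1 at a time, and on the model. It was 509 without mono-culture replicate 1, 534 without mono-culture replicate 3 and 486 without coculture replicate 2, but 1549 without mono-culture replicate 2. With the replicate number as a block it was 1725. On the deposited RPKM values (limma, pseudocount 1) 423 genes were higher and 646 lower, the opposite balance to the counts. Against K, M and T alone, the clones of the same metabolic group, 884 genes were called, of which 438 were among the 980. Of the 66 called differences described here, 48 also passed against these 3 clones and 18 did not (Atf4, Chac1, Cth, Ddit3, Gdf15, Pmvk, Psmb8, Psph, Scd1, Shroom2, Slc30a1, Sparc, Srebf1, Srebf2, Stc2, Tap1, Trib3 and Tubb2b).

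A stricter set required that clone N itself changed, that the difference was called, and that the clone N log2 fold change lay outside the range of all 7 others. It held 287 genes (2.03%), 194 above and 93 below the other lines. Of these, 90 rose in clone N while the mean of the others fell, and 49 fell while that mean rose. The set grew to 457 with the replicate block and to 563 without coculture replicate 1, and shrank to 167 without mono-culture replicate 1, 174 without coculture replicate 2 and 172 without coculture replicate 4. Changes confined to clone N, with at least 1 on the log2 scale there and under 0.5 in each other line, were seen for 2 genes (0.0142%), Adc and Shroom2. That count was 4 with the replicate block or without coculture replicate 1, and 1 without mono-culture replicate 1, 2 or 3 or coculture replicate 2, 3 or 4.

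The libraries test these 8 lines, not lines in general. When counts were summed over replicates and the clone N response was set against the spread of responses over the other 7 lines, 0 of 14478 genes (0.0%) passed in edgeR, 186 (1.28%) had an unadjusted p under 0.05, and DESeq2 also called 0, with 228 unadjusted. Without line T edgeR called 1 gene. No single gene of clone N was thus shown to respond beyond the scatter among lines, and the differences below are from the mean of these particular lines.

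**Figure D2:**
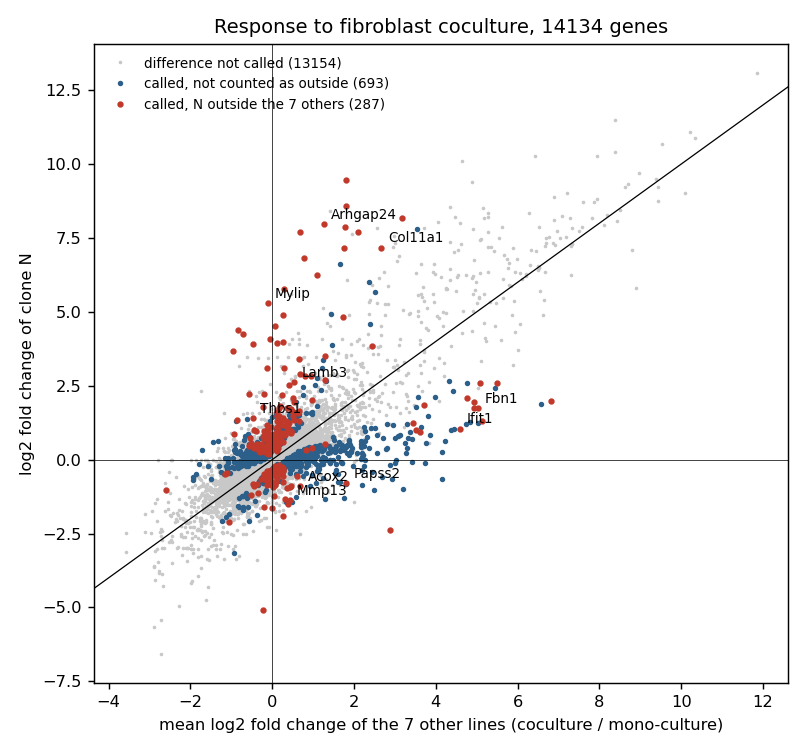
Log2 fold change of clone N (vertical axis) against the mean log2 fold change of the 7 other lines (horizontal axis) for 14134 genes, with the line of equal response. Red points are the 287 genes called in clone N whose response also lies outside all 7 other lines, blue points the other called differences, and grey points the rest. Most genes lie along the line, Thbs1, Lamb3, Col11a1, Arhgap24 and Mylip lie above it, and Fbn1, Ifit1, Acox2, Mmp13 and Papss2 below it.

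Several genes of adhesion and matrix rose in clone N by more than the mean of the other lines. Thbs1 (chr2:118111876-118127133, mm10 as for all gene positions given) encodes a thrombospondin, a matricellular protein that binds integrins and activates latent TGF-beta. It was at 339, 779.7, 308 and 481 CPM in mono-culture replicates 1 to 4 and at 843, 997, 1310 and 1900 CPM in coculture replicates 1 to 4. All coculture libraries were above all mono-culture libraries, although mono-culture replicate 2 came close to coculture replicate 1. The log2 fold change was 1.40 ± 0.35 (SE; adjusted p = 0.00201), whereas in the other lines it ranged from -1.23 to 0.89 and was called downward in 4 of 7, so that the difference was 1.87 ± 0.38 (adjusted p = 0.00152). Lamb3 (chr1:193207699-193343878), a laminin beta chain of epithelial basement membrane, was at 1.65, 1.93, 3.505 and 3.35 CPM alone and 11.2, 14.6, 15.7 and 22.5 CPM in coculture. It reached the highest coculture mean of any line (others 0.492 to 8.97 CPM), with a log2 fold change of 2.61 ± 0.39 and a difference of 2.08 ± 0.42 (adjusted p = 0.00152).

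Itgb3 (chr11:104608000-104670476), an integrin beta subunit of receptors for vitronectin and thrombospondin, was at 124, 134, 134 and 101 CPM alone and 144, 160.2, 184 and 192 CPM in coculture. The cultures did not overlap. Its rise was modest (0.46 ± 0.18, adjusted p = 0.0444) and did not pass without mono-culture replicate 4 or coculture replicates 3 and 4 (adjusted p up to 0.153), but it was called downward in 4 of the 7 other lines, and the difference of 1.04 ± 0.19 (adjusted p = 4.57e-04) held in every fit without 1 clone N library. Itga5, the fibronectin receptor subunit, rose in clone N (0.83 ± 0.14) with no called difference (others' mean 0.57). In all, 14 of 22 tested integrin and laminin genes rose and 1 fell (20% and 17.3% over all genes), with a median log2 fold change of 0.65 against 0.015 over all genes, while the medians of the other lines for this list were 0.055 to 0.26. The difference was called higher for 5 (Itga11, Itgb3, Itgb4, Itgb5 and Lamb3) and lower for 0, against 3.81% and 3.12% of all genes. That count was 8 with the replicate block, 3 without mono-culture replicate 1 or 3 or coculture replicate 4, and 10 and 9 without mono-culture replicate 2 and coculture replicate 1.

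Vcam1 (chr3:116109949-116129688), an adhesion molecule for leukocyte integrins, was at 179, 171, 114 and 97.4 CPM alone and 404, 410.4, 366 and 480 CPM in coculture, with no overlap. Clone N had the lowest mono-culture mean of the 8 lines (others 155 to 375 CPM), and its log2 fold change of 1.57 ± 0.26 compared with 0.055 to 1.16 elsewhere (difference 0.94 ± 0.27, adjusted p = 0.0380). This difference did not pass without mono-culture replicates 3 and 4 or coculture replicate 4 (adjusted p up to 0.133). Timp3 (chr10:86300372-86349506), a matrix-bound inhibitor of metalloproteinases, was at 51.3, 101, 49.7 and 75.6 CPM alone and 90.6, 189.9, 211 and 247 CPM in coculture, where coculture replicate 1 lay below mono-culture replicate 2. Its difference of 1.15 ± 0.34 (adjusted p = 0.0416) did not pass without mono-culture replicates 1 and 3 or coculture replicate 4 (adjusted p up to 0.148).

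Tgfb2, a ligand of the TGF-beta family, was at 18.3, 45.2, 9.21 and 9.84 CPM alone and 23.7, 41.4, 36.4 and 63.4 CPM in coculture. Mono-culture replicate 2 overlapped the coculture range, and the difference of 1.13 ± 0.34 (adjusted p = 0.0471) did not pass without mono-culture replicates 1, 3 and 4 or coculture replicate 4 (adjusted p up to 0.208). The other lines were divided, with falls of -1.57, -1.17 and -1.30 on the log2 scale in E, K and M and values of 0.66 to 0.91 in H, KPC1, T and V, close to the 0.99 ± 0.32 of clone N. Ptgs1, the constitutive cyclooxygenase of prostanoid synthesis, had the lowest mono-culture mean of the lines and rose from 30.1 ± 7.39 to 61.1 ± 19.9 CPM, against -0.99 to 0.73 on the log2 scale elsewhere (difference 1.13 ± 0.21, adjusted p = 4.71e-04). Wnt5a, a ligand of noncanonical Wnt signalling, was barely detected alone at 0, 0.297, 0.0815 and 0.143 CPM and was at 0.901, 2.45, 2.82 and 2.35 CPM in coculture. Its difference was 3.81 ± 0.62 (adjusted p = 6.89e-05), but the other lines already expressed it at 0.430 to 70.4 CPM when grown alone.

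Thbd, the thrombin receptor thrombomodulin, and Col11a1, a fibrillar collagen chain, rose in most lines and more in clone N. Thbd was at 1.5, 0.742, 2.12 and 0.713 CPM alone and 8.29, 14.3, 23.8 and 26.6 CPM in coculture (log2 fold change 3.86 ± 0.44), above the other lines' 0.78 to 3.39. That difference (1.42 ± 0.48, adjusted p = 0.0809) did not pass without mono-culture replicates 1, 2 and 4 or coculture replicates 2, 3 and 4 (adjusted p up to 0.210). Col11a1 (chr3:114030540-114220718) was at 0.0750, 0.0742, 0.0815 and 0.214 CPM alone, 6 counts in all, and at 7.51, 18.8, 14.9 and 28.7 CPM in coculture, with a difference of 4.51 ± 0.81 (adjusted p = 3.28e-04). The clone N mono-culture mean was the lowest of the 8 lines, and the coculture mean lay within the others' range (8.60 to 86.4 CPM). Sparc, a collagen-binding matricellular protein, rose from 397 ± 30.5 to 738 ± 144 CPM (log2 fold change 0.90 ± 0.13, difference 0.64 ± 0.14, adjusted p = 0.00236), but line M rose as much (0.92), and against K, M and T the difference was 0.28 (adjusted p = 0.326). For Thbs1, Lamb3, Itgb3, Timp3, Tgfb2, Thbd, Col11a1 and Sparc, coculture replicate 1 was the lowest of the coculture libraries and replicate 4 the highest. The fibroblast marker sum had the same lowest and highest libraries. Vcam1 was instead lowest in coculture replicate 3, and Wnt5a was highest in it. Whether fibroblast RNA plays a part in this order was not tested.

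**Figure D3:**
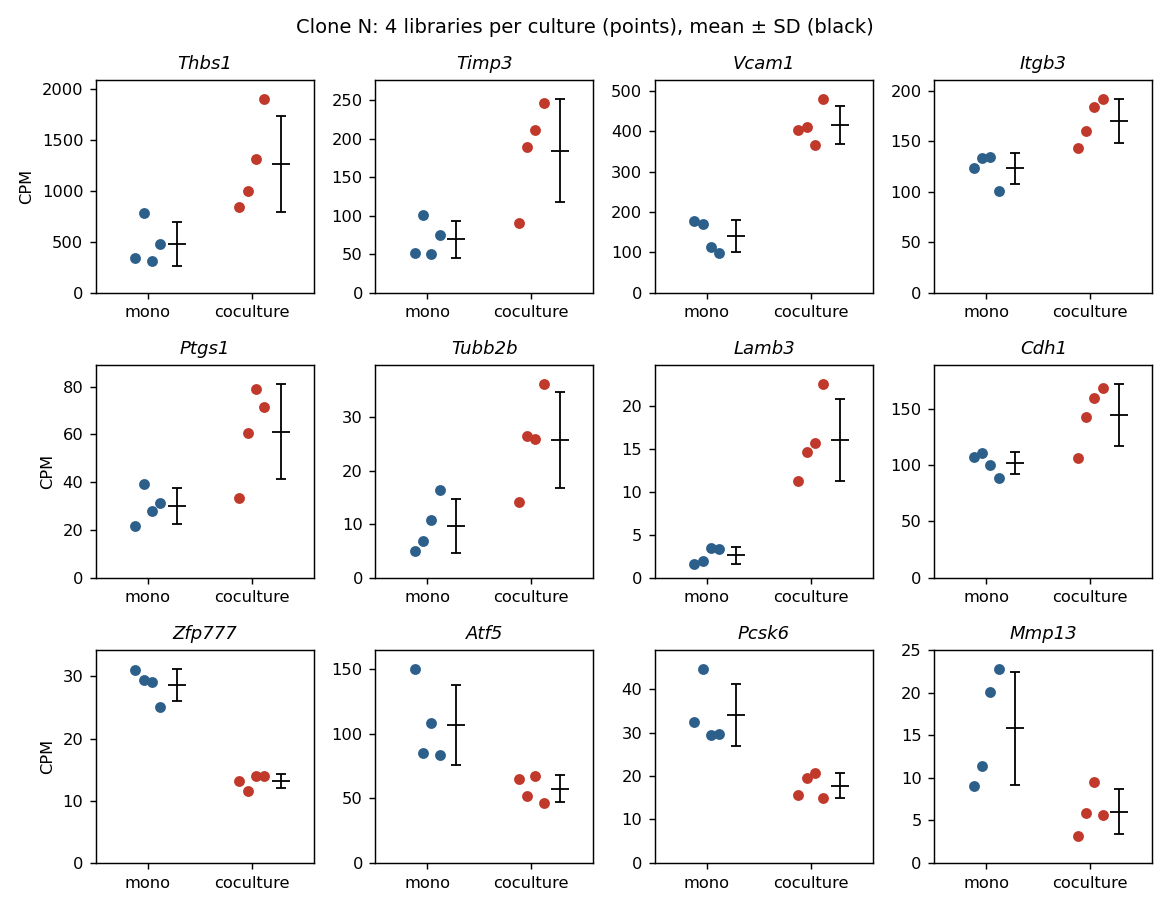
Level (CPM, linear axis from 0) of 12 genes in each of the 4 mono-culture (blue) and 4 coculture (red) libraries of clone N, in replicate order from left to right, with the mean and SD in black. The 8 genes of the upper rows rose in coculture and the 4 genes of the bottom row (Zfp777, Atf5, Pcsk6 and Mmp13) fell.

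Over 16 tested genes of epithelial junctions and keratins, 3 rose and 3 fell, counts near the shares of 20% and 17.3% over all genes. The difference was called higher for 2, Cdh1 and Ocln, and lower for 0 (3.81% and 3.12% of all genes). Cdh1, E-cadherin of the adherens junction, was at 107, 111, 100.1 and 88.7 CPM alone and 106, 143, 159 and 169 CPM in coculture, where replicate 1 overlapped the mono-culture range. It was called upward in 0 of the other 7 lines, whose log2 fold changes were -0.61 to 0.14, and the difference was 0.61 ± 0.16 (adjusted p = 0.0182). Ocln, the tight junction protein occludin, rose from 7.45 ± 1.02 to 12.8 ± 3.56 CPM (difference 1.01 ± 0.23, adjusted p = 0.00538) and was also called upward in 0 other lines. Vim, the mesenchymal intermediate filament vimentin, was at 3448, 3442, 3060 and 4124 CPM alone and 4066, 5424, 5568 and 8380 CPM in coculture, from the lowest mono-culture mean of the lines. Its difference of 0.68 ± 0.16 (adjusted p = 0.00681) did not pass without coculture replicate 4 (adjusted p up to 0.108). Tubb2b, a beta-tubulin, rose from 9.71 ± 5.03 to 25.7 ± 8.99 CPM (log2 fold change 1.40 ± 0.29, difference 1.24 ± 0.31, adjusted p = 0.0127). Lines T and M rose by 1.35 and 1.08 on that scale, and against K, M and T the difference was 0.76 (adjusted p = 0.207). Sdc3, a heparan sulfate proteoglycan of the cell surface, fell in 6 of the 7 other lines and was at 72.7 ± 17.9 and 100.1 ± 15.8 CPM in clone N (log2 fold change 0.46 ± 0.19, difference 0.93 ± 0.21, adjusted p = 0.00425). Its rise in clone N did not pass without mono-culture replicates 1 and 3 or coculture replicates 3 and 4 (adjusted p up to 0.231).

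Of the genes that changed in clone N alone by the strict definition, Adc was the better expressed. It encodes an arginine decarboxylase-like protein that acts as antizyme inhibitor in polyamine metabolism. Adc was at 5.25, 8.30, 6.195 and 9.48 CPM alone and 13.9, 20.1, 15.98 and 22.9 CPM in coculture with no overlap, a log2 fold change of 1.31 ± 0.23 and a difference of 1.20 ± 0.24 (adjusted p = 0.00152). Mean Adc also rose in T (8.46 to 11.6 CPM), K (9.65 to 12.5 CPM), M (8.74 to 11.2 CPM) and E (7.21 to 8.45 CPM). These rises were under the limit of 0.5, so the name rests on that cut. Mean Adc fell in H, KPC1 and V. The clone N coculture mean (18.2 CPM) lay below those of H (37.1 CPM), KPC1 (21.1 CPM) and V (20.3 CPM). Cyp26b1, which degrades retinoic acid, was at 3.97, 6.82, 3.99 and 5.92 CPM alone and 10.1, 17.6, 8.36 and 10.7 CPM in coculture. It was called upward in 0 other lines, and the difference of 1.298 ± 0.33 (adjusted p = 0.0145) did not pass without coculture replicate 2 (adjusted p up to 0.104). Mean Cyp26b1 also rose in T (2.39 to 3.73 CPM) and E (0.965 to 1.44 CPM), and fell in H, K, KPC1, M and V. The coculture mean of K (11.4 CPM) was close to that of clone N (11.7 CPM). Klf2, a flow- and stress-responsive Kruppel-like factor, was at 23.8, 39.7, 16.3 and 21.7 CPM alone and 21.99, 46.05, 47.1 and 63.5 CPM in coculture, where the cultures overlapped. Its difference was 1.49 ± 0.39 (adjusted p = 0.0182), while its rise in clone N did not pass without mono-culture replicates 1, 3 and 4 or coculture replicates 2, 3 and 4 (adjusted p up to 0.281). Mean Klf2 also rose in lines V (10.8 to 24.4 CPM) and KPC1 (13.7 to 18.5 CPM), and fell in E, H, K, M and T.

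A further set of genes had 0 or few counts in clone N grown alone, the lowest mono-culture level of the 8 lines, and low levels in coculture. Mylip (chr13:45389742-45412022), a ubiquitin ligase, had 1 count in the 4 mono-culture libraries together. It was at 0.541, 1.19, 1.20 and 1.25 CPM in coculture, a ratio of 54.9 (95% interval 9.52 to 2203), the interval covering counting error only. The other lines had 1.05 to 11.03 CPM alone and 1.49 to 7.46 CPM in coculture. Dennd5b, a regulator of Rab GTPases, also had 1 count alone and was at 0.240, 1.26, 1.51 and 2.98 CPM in coculture, a ratio of 75.2 (95% interval 13.2 to 3004). Arhgap24 (chr5:102481391-102897937), a Rac-directed GTPase-activating protein, had 0 counts alone and was at 0.661, 1.96, 1.67 and 3.92 CPM in coculture, at least 34.1-fold higher against a floor of 3 counts. The other lines had 0.524 to 28.97 CPM of Arhgap24 alone.

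Pogk (chr1:166384622-166409863), which encodes a KRAB-domain protein, was at 0.675, 0.223, 0.244 and 0.285 CPM alone and 0.961, 1.96, 1.57 and 2.19 CPM in coculture, with no overlap (difference 1.93 ± 0.33, adjusted p = 1.19e-04). The other lines were at 10.9 to 71.7 CPM alone and 17.2 to 62.5 CPM in coculture, so clone N remained the lowest in both cultures. Shroom2, an actin-binding protein of epithelial cells and the remaining gene that changed in clone N alone, was at 0.208 ± 0.0406 and 0.705 ± 0.286 CPM against 2.87 to 39.3 CPM elsewhere. Ccdc3, a secreted protein, had 0 counts alone and 8 counts in coculture, at least 2.25-fold higher. The differences of Shroom2 (1.58 ± 0.55, adjusted p = 0.0897) and Ccdc3 (adjusted p = 0.0911) did not pass without any of 7 of the 8 clone N libraries (adjusted p up to 0.278 and 0.213), all but coculture replicate 1. On log2(RPKM + 1) the difference of Arhgap24 was -0.24 and that of Shroom2 was -0.029, both reversed. For all of these genes but Dennd5b, clone N had the lowest mean of the 8 lines in coculture as well as alone.

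Falls outside the range of the other lines were fewer. Zfp777 (chr6:48024188-48048911), a zinc-finger protein, was at 30.97, 29.4, 29.02 and 25.03 CPM alone and 13.2, 11.6, 13.9 and 13.96 CPM in coculture, with no overlap and little spread. The log2 fold change was -1.12 ± 0.12 (adjusted p = 2.63e-10) and the difference -0.77 ± 0.12 (adjusted p = 6.89e-05). Mean Zfp777 also fell in other lines, as in E (34.5 to 18.1 CPM) and T (23.6 to 14.0 CPM), and rose only in KPC1 (16.5 to 19.5 CPM). Pcsk6, a proprotein convertase, was at 32.4, 44.6, 29.4 and 29.7 CPM alone and 15.7, 19.6, 20.8 and 15.1 CPM in coculture (difference -0.94 ± 0.18, adjusted p = 8.71e-04). Mean Pcsk6 also fell in line T (132 to 74.0 CPM), while it rose in line V (20.5 to 44.6 CPM). Acox2 (chr14:8225511-8259353), a peroxisomal oxidase of bile acid and branched fatty acid metabolism, was at 26.2, 14.5, 45.97 and 26.7 CPM alone and 20.8, 15.1, 15.1 and 9.33 CPM in coculture. The cultures overlapped, the fall did not pass without mono-culture replicate 3 (adjusted p up to 0.137), and the difference of -1.59 ± 0.31 (adjusted p = 8.47e-04) held in every such fit, the other lines having changed by 0.22 to 1.29.

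Mmp13 (chr9:7272514-7283331), a collagenase, was at 8.998, 11.4, 20.1 and 22.8 CPM alone and 3.18, 5.81, 9.51 and 5.64 CPM in coculture, overlapping at the margin. The clone N level was the highest of the 8 lines in both cultures, and the difference was -1.81 ± 0.41 (adjusted p = 0.00458). Papss2, which makes the sulfate donor PAPS, was at 6.65 ± 2.83 and 3.83 ± 0.671 CPM, again the highest of the lines in both cultures, with a difference of -2.61 ± 0.47 (adjusted p = 2.88e-04). Its fall did not pass without mono-culture replicates 1 and 2 or coculture replicates 1, 3 and 4 (adjusted p up to 0.376). Higd1a, a hypoxia-induced mitochondrial protein, was at 11.5, 9.94, 21.1 and 39.9 CPM alone and 13.5, 11.3, 13.5 and 17.8 CPM in coculture, where mono-culture replicate 4 stood above the rest. Its fall (adjusted p = 0.0961) did not pass with the replicate block (adjusted p = 0.176) or without mono-culture replicates 3 and 4 or coculture replicates 1, 2 and 3 (adjusted p up to 0.960), and its difference of -1.16 ± 0.28 did not pass without mono-culture replicate 4 (adjusted p up to 0.184). Nle1, a ribosome assembly factor, fell from 29.9 ± 3.86 to 17.1 ± 3.95 CPM and Mettl15, a mitochondrial rRNA methyltransferase, from 6.45 ± 0.605 to 4.40 ± 0.690 CPM. Their differences were -0.79 ± 0.22 and -0.80 ± 0.18, and that of Nle1 did not pass without mono-culture replicate 1 or coculture replicate 2 (adjusted p up to 0.122). Mean Nle1 also fell in line T (19.65 to 12.2 CPM), while it rose in KPC1 (14.2 to 23.6 CPM).

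ISR genes responded less in clone N than in the mean of the other lines, and clone N expressed them at high level when grown alone. Of 28 tested, 8 rose and 1 fell in clone N, against 20% and 17.3% of all genes. The difference was called lower for 15 and higher for 0 (background 3.12% and 3.81%), and its median was -0.64 against -0.0042 over all genes. The median response of the list was 0.31 in clone N and 0.41 to 1.98 in the other 7 lines. In mono-culture, clone N had the highest mean of the 8 lines for 8 of the 28 genes, against 12.7% of all genes tested. It was among the top 2 for 23, and the share of all genes in the top 2 was not computed. Because the response subtracts the mono-culture level, these counts rest on the same libraries. The study's immunoblots had ATF4, ASNS, PSPH and SHMT2 protein higher in group 1 than in group 2, which holds clone N. Mono-culture RNA of clone N lay the other way. Asns was at 335 CPM against 118 to 156 CPM in E, H and V, and Atf4 at 912 CPM against 391 to 534 CPM. RNA and protein are different measures, and the cause of the unlike order was not tested. The count of 15 was 24 with the replicate block. It fell to 6 without mono-culture replicate 3, 9 without mono-culture replicate 4 and 8 without coculture replicate 2, to 9 without line H and 7 without line V, and to 2 when clone N was compared with K, M and T only.

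Among its enzymes of amino acid synthesis, Asns, Aldh18a1, Pycr1, Shmt2 and Psph rose in clone N. Asns, asparagine synthetase, was at 359.5, 214, 417 and 349 CPM alone and 516, 547, 688 and 542 CPM in coculture. Every coculture library was above every mono-culture library, of which replicate 2 was the lowest, and the log2 fold change of 0.78 ± 0.27 (adjusted p = 0.0278) did not pass without mono-culture replicate 2 (adjusted p up to 0.129). The other lines ranged from 0.60 to 2.31, and the difference (-0.60 ± 0.29) was not called (adjusted p = 0.262) except with the replicate block (adjusted p = 0.0880). Aldh18a1 and Pycr1, which make proline, rose by log2 fold changes of 0.80 ± 0.25 and 0.78 ± 0.21. Shmt2, the mitochondrial serine hydroxymethyltransferase, had 0.54 ± 0.21 and did not pass without mono-culture replicates 2 and 4 or coculture replicate 3 (adjusted p up to 0.205). Psph, the last enzyme of serine synthesis, was at 97.0, 56.2, 107 and 104 CPM alone and 133, 124, 139 and 109.8 CPM in coculture. Its rise (0.48 ± 0.21, adjusted p = 0.0778) and its lower difference (-0.63 ± 0.22, adjusted p = 0.0970) both lay close to the threshold, the rise failing without mono-culture replicate 2 or coculture replicates 1, 2 and 3 (adjusted p up to 0.328) and the difference without mono-culture replicates 1, 3 and 4 or coculture replicates 2, 3 and 4 (adjusted p up to 0.256).

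Of its transcription factors, Atf4 did not pass in clone N and Atf5 fell. Atf4 was at 952, 666, 1075 and 953 CPM alone and 1047, 969, 1083 and 919 CPM in coculture, so the cultures overlapped. Its difference of -0.52 ± 0.19 was at the threshold (adjusted p = 0.0982) and failed without mono-culture replicates 1, 3 and 4 or coculture replicates 2, 3 and 4 (adjusted p up to 0.275). Atf5 (chr7:44812256-44816658), a factor induced with ATF4, fell from 149.6, 84.7, 108 and 83.7 CPM alone to 64.6, 51.6, 67.5 and 46.3 CPM in coculture with no overlap (log2 fold change -0.89 ± 0.21, adjusted p = 8.31e-04, difference -0.90 ± 0.22, adjusted p = 0.0107). Clone N had the highest mono-culture level of Atf5 among the lines (others 18.8 to 80.5 CPM). Mean Atf5 also fell in line T (80.5 to 46.1 CPM), while it rose in line V (31.8 to 53.1 CPM). Gdf15, a secreted stress cytokine, rose from 2.83 ± 1.06 to 6.41 ± 2.43 CPM, less than elsewhere (difference -1.78 ± 0.44, adjusted p = 0.0110).

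Trib3, Ddit3 and Chac1 were chosen after their values were seen. Trib3, a pseudokinase induced by the ISR, was at 191 CPM alone and 235 CPM in coculture (difference -1.35 ± 0.37, adjusted p = 0.0243). Ddit3, the proapoptotic factor CHOP, was at 121 and 156 CPM (difference -1.12 ± 0.32), and Chac1, which degrades glutathione, at 49.3 and 70.6 CPM (difference -1.14 ± 0.39). The clone N response of none of the 3 passed its own test, although that of Chac1 did with the replicate block (adjusted p = 0.0958). Cth, the last step to cysteine (difference -1.41 ± 0.35), Sesn2, an inhibitor of mTORC1 (-1.05 ± 0.27), and the glycoprotein hormone Stc2 (-0.87 ± 0.20) showed the same pattern, except that the rise of Cth passed with the replicate block (adjusted p = 0.0439), with clone N means of 71.6, 36.4 and 59.6 CPM alone and 101, 32.1 and 57.5 CPM in coculture. The difference failed for Trib3 without mono-culture replicate 3 (adjusted p up to 0.101), for Cth without mono-culture replicate 3 (adjusted p up to 0.1251), for Ddit3 without mono-culture replicates 3 and 4 or coculture replicate 2 (adjusted p up to 0.141) and for Chac1 without mono-culture replicates 1, 3 and 4 or coculture replicates 1, 2 and 4 (adjusted p up to 0.231), while for Sesn2 and Stc2 it held in every such fit.

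ATF4 acts through a composite element whose letters here were taken as TGATGNAA. The element was searched on both strands in the 250 bases before each RefSeq transcript start (GRCm38.p6), and 1134 of 32851 windows (3.45%) held it. Counted by gene, 1056 of 27025 genes (3.91%) held it in at least 1 window. Of the 26 list genes with a window, 7 held it (Asns, Chac1, Fgf21, Nupr1, Pycr1, Slc7a11 and Vldlr). The windows of 2 enzymes that rose without a called difference (Asns and Pycr1) and of a gene with a called lower difference (Chac1) are shown, with the match in capitals. Whether these genes responded differently from each other was not tested. They lie at chr6:7693210-7693459 (minus strand), chr11:120643749-120643998 (minus strand) and chr2:119350992-119351241 (plus strand), and the match ends 15, 95 and 185 bases before the start. In Chac1 it is on the opposite strand. A match is a description of letters and not of binding.
Asns: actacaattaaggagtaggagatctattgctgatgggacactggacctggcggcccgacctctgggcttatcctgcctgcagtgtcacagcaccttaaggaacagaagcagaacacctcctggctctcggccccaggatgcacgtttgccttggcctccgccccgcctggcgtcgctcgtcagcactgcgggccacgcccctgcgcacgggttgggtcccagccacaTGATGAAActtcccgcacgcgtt
Pycr1: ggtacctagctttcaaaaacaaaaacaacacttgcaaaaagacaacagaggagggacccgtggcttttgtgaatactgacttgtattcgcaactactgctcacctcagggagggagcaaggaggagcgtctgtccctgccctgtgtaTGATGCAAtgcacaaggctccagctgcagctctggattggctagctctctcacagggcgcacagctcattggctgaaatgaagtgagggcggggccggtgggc
Chac1: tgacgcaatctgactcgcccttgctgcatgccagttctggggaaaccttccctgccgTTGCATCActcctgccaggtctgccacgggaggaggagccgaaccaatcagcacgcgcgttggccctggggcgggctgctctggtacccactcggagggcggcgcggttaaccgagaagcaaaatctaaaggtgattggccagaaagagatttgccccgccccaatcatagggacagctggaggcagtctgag

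Some interferon-stimulated and antigen presentation genes also responded less in clone N than in the mean of the other lines. Of 29 tested interferon-stimulated genes, 13 rose and 1 fell in clone N (20% and 17.3% over all genes). The median log2 fold change was 0.62, below the medians of 4 other lines and above those of E, M and T (others 0.22 to 2.41). Clone N had the highest mono-culture mean for 5 of the 29, near the 12.7% of all genes tested. It was among the top 2 for 12, and the share of all genes in the top 2 was not computed. The difference was called lower for 5 and higher for 0 (background 3.12% and 3.81%). The count of 5 was 3 in DESeq2, 3 without mono-culture replicate 1 or coculture replicate 3, 3 without line V, and 2 against K, M and T only. It was 8 without line E and 9 without line T. Isg15, a ubiquitin-like modifier, was at 2.25, 2.30, 1.96 and 2.14 CPM alone and 3.60, 3.78, 5.59 and 3.53 CPM in coculture. The cultures did not overlap, and the rise (0.94 ± 0.39, adjusted p = 0.0610) did not pass without mono-culture replicates 3 and 4 or coculture replicate 3 (adjusted p up to 0.198). The other lines began lower, at 0.0746 to 0.872 CPM, and rose by 2.44 to 5.01 on the log2 scale to 1.61 to 11.7 CPM, so that the difference was -2.68 ± 0.45 (adjusted p = 1.20e-04).

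Ifit1, which binds viral RNA lacking cap methylation, was at 2.25, 1.19, 1.39 and 1.35 CPM alone and 3.004, 2.31, 3.66 and 3.76 CPM in coculture, again the highest of the lines alone. Its difference was -3.54 ± 0.55 (adjusted p = 4.95e-05), and its rise (adjusted p = 0.0676) did not pass without mono-culture replicates 2, 3 and 4 or coculture replicates 3 and 4 (adjusted p up to 0.164). Ifit3, its partner, and Bst2, the tetherin that holds virions at the membrane, rose in clone N, from 0.192 ± 0.152 to 1.79 ± 1.08 CPM and from 21.6 ± 2.17 to 41.5 ± 4.09 CPM, with no called difference. Psmb8, a catalytic subunit of the immunoproteasome, was at 2.40, 3.71, 2.20 and 3.14 CPM alone and 3.24, 3.29, 2.09 and 1.96 CPM in coculture with full overlap. In the other lines it was at 0 to 0.848 CPM alone and 0.0965 to 0.635 CPM in coculture, so clone N was the highest in both cultures while its difference was -3.11 ± 0.62 (adjusted p = 0.00152). Tap1, the peptide transporter, was at 5.77 CPM alone and 7.65 CPM in coculture, the highest mean of the lines in both cultures (difference -2.40 ± 0.51, adjusted p = 0.00223). The T cell chemokines Ccl5 and Cxcl10 had clone N means of 7.40 and 3.05 CPM alone, above every other line, and 14.2 and 4.01 CPM in coculture. Their differences were -2.43 ± 0.36 and -2.91 ± 0.54. Trim30a, an interferon-induced ubiquitin ligase, was at 2.53 and 2.94 CPM (difference -3.05 ± 0.60).

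The interferon-stimulated response element, searched as a pair of GAAA half-sites 2 bases apart on both strands in the same windows, was held by 978 of 32851 (2.98%). Counted by gene, 936 of 27025 genes (3.46%) held it, and 11 of the 24 list genes with a window. The windows of Isg15 and Ifit1 are shown because both genes rose in all 8 lines, and least in clone N. They lie at chr4:156200819-156201068 (minus strand) and chr19:34640639-34640888 (plus strand). Isg15 has 3 overlapping matches, the nearest 56 bases before the start, and Ifit1 has 2 on the opposite strand, the nearest 75 bases before it. Capitals mark the matches.
Isg15: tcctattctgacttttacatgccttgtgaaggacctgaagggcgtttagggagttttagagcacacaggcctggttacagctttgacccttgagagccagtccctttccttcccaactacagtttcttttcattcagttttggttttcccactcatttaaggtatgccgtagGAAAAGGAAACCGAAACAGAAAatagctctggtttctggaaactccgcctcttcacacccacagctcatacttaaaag
Ifit1: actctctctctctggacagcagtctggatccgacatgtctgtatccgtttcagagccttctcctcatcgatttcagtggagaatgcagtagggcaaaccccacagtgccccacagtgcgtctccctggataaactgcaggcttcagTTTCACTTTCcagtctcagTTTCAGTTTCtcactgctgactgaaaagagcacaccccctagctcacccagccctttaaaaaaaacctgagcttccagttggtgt

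**Figure D4:**
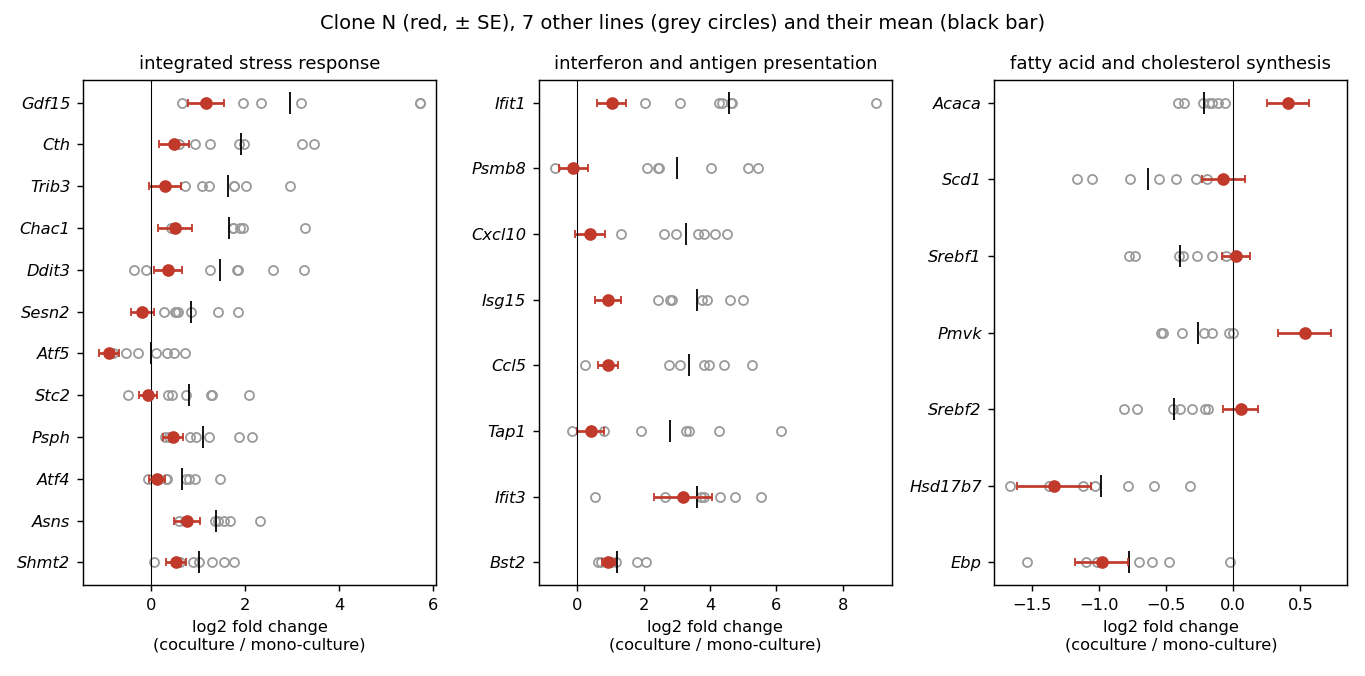
Log2 fold change (coculture over mono-culture) of members of 3 gene groups in clone N (red, with SE), in each of the 7 other lines (grey circles) and as the mean of those lines (black bar). Clone N lies below that mean for most of the stress response and interferon genes shown and above it for Acaca, Scd1, Srebf1, Pmvk and Srebf2, while Hsd17b7 and Ebp fell with the rest.

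Some genes of lipid synthesis fell in other lines and did not pass or rose in clone N. Of 13 tested genes of fatty acid synthesis, 1 rose and 1 fell in clone N (20% and 17.3% over all genes), and the difference was called higher for 7 (Acly, Acaca, Fasn, Scd1, Elovl6, Fads2 and Srebf1) and lower for 0, against 3.81% and 3.12% of all genes. Its median was 0.50, against -0.0042 over all genes, and the median response was 0.028 in clone N and -0.64 to -0.16 elsewhere. Acaca, an acetyl-CoA carboxylase, was at 99.7, 122, 92.3 and 71.3 CPM alone and 124, 149, 137 and 100.5 CPM in coculture. The cultures overlapped, and the rise (0.41 ± 0.15, adjusted p = 0.0407) did not pass without mono-culture replicate 4 or coculture replicates 2 and 3 (adjusted p up to 0.193). Its difference was 0.62 ± 0.17 (adjusted p = 0.0204) and did not pass without mono-culture replicate 4 (adjusted p up to 0.103). Scd1, the stearoyl-CoA desaturase, was at 903 and 858 CPM (difference 0.56 ± 0.17), and Srebf1, the factor that drives these enzymes, at 176 and 178 CPM (difference 0.41 ± 0.11). Neither passed in clone N itself, and each was called downward in 5 other lines. The difference failed for Scd1 without mono-culture replicates 3 and 4 or coculture replicate 2 (adjusted p up to 0.242) and for Srebf1 without mono-culture replicate 3 or coculture replicate 2 (adjusted p up to 0.116). The count of 7 was 3 without mono-culture replicate 1, 1 without mono-culture replicate 3 or 4 or coculture replicate 2, 4 without coculture replicate 4, 3 without line E or V, and 1 against K, M and T only.

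Of 23 tested genes of cholesterol synthesis, 1 rose and 5 fell in clone N (20% and 17.3% over all genes), and the difference was called higher for 5, among them Pmvk, Insig1 and Srebf2, and lower for 0 (3.81% and 3.12%). The median response was negative in clone N too, at -0.16, and -0.87 to -0.19 in the other lines. Pmvk, phosphomevalonate kinase, was at 56.4, 79.3, 34.8 and 46.4 CPM alone and 67.0, 88.8, 60.9 and 97.1 CPM in coculture, and was called upward in 0 other lines. Its rise (0.53 ± 0.20, adjusted p = 0.0384) did not pass without mono-culture replicates 3 and 4 or coculture replicate 4 (adjusted p up to 0.182), and its difference (0.79 ± 0.21, adjusted p = 0.0225) did not pass without mono-culture replicate 3 (adjusted p up to 0.130). The difference of Srebf2, a factor that drives these enzymes, was 0.50 ± 0.14 (adjusted p = 0.0277), lost without mono-culture replicates 3 and 4 or coculture replicate 2 (adjusted p up to 0.167). Later steps fell in clone N too, with Hsd17b7 at -1.33 ± 0.28 and Ebp at -0.98 ± 0.20 on the log2 scale and no called difference. Clone N had the lowest mono-culture mean of the lines for 10 of the 23 genes and for 6 of the 13 of fatty acid synthesis. The share over all genes tested was 12.1%. The count of 5 was 15 with the replicate block and 10 within the larger series of sample numbers. Without 1 library it was 0 (mono-culture replicate 3), 1 (coculture replicate 2), 2 (mono-culture replicate 4), 3 (coculture replicate 3), 9 (coculture replicate 1) or 16 (mono-culture replicate 2). It was 3 without line E, 8 without line K, 10 without line M and 1 against K, M and T only.

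**Figure D5:**
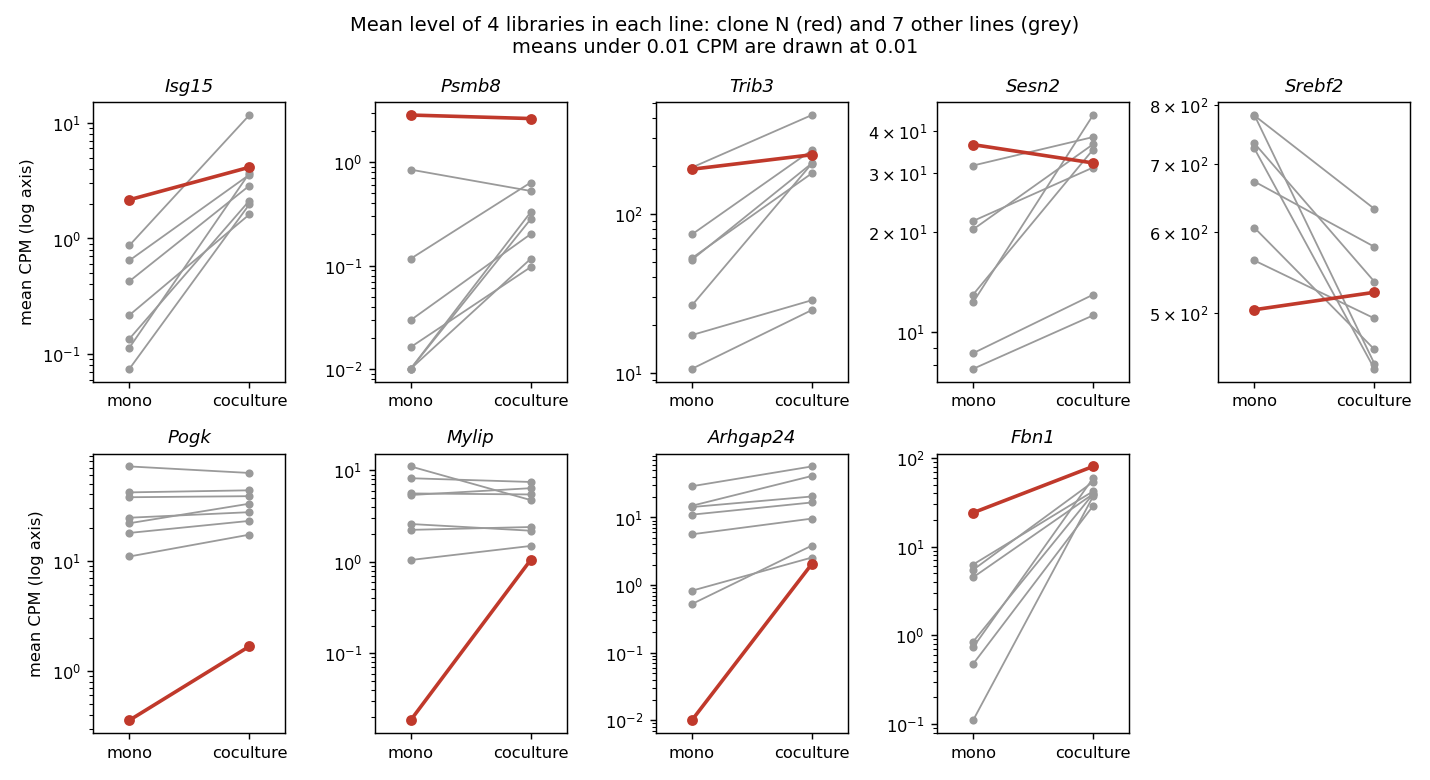
Mean CPM (log axis, 4 libraries) of 9 genes in mono-culture and coculture for clone N (red) and the 7 other lines (grey). Clone N starts highest for Isg15, Psmb8, Sesn2 and Fbn1, is among the top 2 for Trib3, and starts lowest for Srebf2, Pogk, Mylip and Arhgap24.

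Some matrix genes that clone N expressed when grown alone rose less in it than elsewhere. Fbn1 (chr2:125300594-125507993), the microfibril protein fibrillin, was at 24.1, 29.8, 21.4 and 21.3 CPM alone and 45.7, 80.3, 92.7 and 103 CPM in coculture, with no overlap. The other lines went from 0.110 to 6.30 to 28.9 to 59.3 CPM, so clone N was the highest in both cultures while its log2 fold change of 1.73 ± 0.46 lay below their 2.74 to 8.30 (difference -3.29 ± 0.54, adjusted p = 9.79e-05). Ddr2, a collagen receptor kinase, rose from 7.34 ± 3.04 to 28.2 ± 6.89 CPM (difference -2.99 ± 0.47), and Serpinf1, the antiangiogenic factor PEDF, from 3.58 ± 1.86 to 14.9 ± 2.28 CPM (difference -2.68 ± 0.52). Their coculture means in the other lines were 15.97 to 33.6 and 9.71 to 14.9 CPM. Fmod, a collagen-binding proteoglycan, was at 0.525, 1.93, 0 and 0 CPM alone and 3.60, 5.67, 2.51 and 3.29 CPM in coculture. Its difference of -2.48 ± 0.73 did not pass without mono-culture replicate 2 (adjusted p up to 0.650), the library with the highest mono-culture value, and was reversed to 0.25 on log2(RPKM + 1). Pde10a, a cyclic nucleotide phosphodiesterase, was at 0 counts alone in every other line and at 0.375, 0.371, 0.163 and 0 CPM in clone N, so that the difference (adjusted p = 0.00397) compares low levels.

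Several further genes had a called lower difference without a called response in clone N. Snai2, a factor of epithelial-mesenchymal transition, was at 41.3 CPM alone, the highest of the lines, and 43.9 CPM in coculture (difference -1.15 ± 0.24, adjusted p = 0.00202). Hmox1, the inducible heme oxygenase, was at 74.2 and 56.7 CPM (difference -1.48 ± 0.29, adjusted p = 0.00109) and was called upward in 5 other lines. Eda2r, a death-domain receptor induced by p53, was at 3.81 and 6.21 CPM (difference -2.70 ± 0.52), a rise that passed only with the replicate block (adjusted p = 0.0617). Bambi, a decoy receptor of TGF-beta signalling, and Car6, a secreted carbonic anhydrase, were near 1 CPM in clone N (0.820 and 1.19 alone, 0.974 and 0.729 in coculture), with differences of -3.89 ± 0.65 and -4.83 ± 0.75. The other lines had at most 0.179 and 0.514 CPM of these when grown alone.

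Across all called differences, mono-culture level and response went together. Of the 441 genes with a lower difference, clone N had the highest mono-culture mean of the 8 lines for 202 (45.8%), against 12.7% of all genes tested, and the highest coculture mean for 78 (17.7%), against 11.2%. Of the 539 with a higher difference, clone N had the lowest mono-culture mean for 196 (36.4%), against 12.1%, and the lowest coculture mean for 53 (9.83%), against 10.9%. The response and the mono-culture level share the mono-culture libraries, so this is a description with no test.

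Many genes of proliferation and ribosome biogenesis rose in clone N. Of 30 tested genes of DNA replication and mitosis, 15 rose and 0 fell (20% and 17.3% over all genes), with a median log2 fold change of 0.41 (others 0.19 to 1.38). The origin licensing factor Cdt1 rose from 40.97 ± 7.76 to 74.3 ± 13.9 CPM and the mitotic kinase Aurka from 43.9 ± 13.3 to 74.5 ± 12.1 CPM. The difference was called lower for 4 (Mcm2, Mcm5, Ccne1 and Ccne2), against 3.12% of all genes. Of 30 Myc targets and ribosome biogenesis genes, 17 rose and 0 fell, with a median of 0.28, below the medians of all 7 other lines (0.30 to 0.99), and the difference was called lower for 5. In mono-culture, clone N was the highest line for 9 and 10 of the 30 genes of these lists, against 12.7% of all genes tested. It was among the top 2 lines for 24 and 20, and the share of all genes in the top 2 was not computed.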

How the data were processed

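Libraries were poly(A)-selected and strand-specific, made from 200 ng of RNA with 14 amplification cycles, and sequenced as paired 76-base reads on a NextSeq 500. The authors deposited raw counts per gene and RPKM values for all 64 libraries. Their processing notes name featureCounts, edgeR and mm10, and the aligner, the counting settings and the gene lengths behind the deposited RPKM values are not given in the sources used here. Of 39017 genes in the count table, 37693 were placed with GENCODE M21 (99.83% of counts), which gave the gene positions.

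Counts were analysed with edgeR 4.0.16 (R 4.3.3): filterByExpr over 16 groups of line and culture, TMM scaling, 1 model for all libraries with 1 mean per group, robust quasi-likelihood F-tests, and Benjamini-Hochberg adjustment over 14134 genes at 0.1. The contrasts were coculture against mono-culture in clone N, and that response minus the mean response of the other 7 lines. Counts summed per line and culture (14478 genes, 6 residual degrees of freedom) gave the test against the spread over lines. Errors of log2 values are standard errors, other errors are SD with n = 4. Overlap between groups was judged on CPM. Alternatives were RLE scaling, DESeq2 1.42.0, no filter, other thresholds, a replicate block, leaving out each clone N library or each other line, and limma 3.58.1 on log2(RPKM + 1 or + 0.1). The libraries carry sample numbers in 2 series, S1 to S43 and S1 to S21, and coculture replicate 1 is the only clone N library of the smaller series, so a term for the series and a fit within the larger one were also tried. What the series were is not given in the sources used here. In simulated counts, the clone N response was called for 92% of 200 genes changed by 1 on the log2 scale (13865 genes), and the difference for 90%. Of the calls, 14% and 12.2% were genes that had not been changed. The 200 genes were drawn from those at 5 CPM or more in clone N mono-culture. The other lines were given no response, and the libraries were simulated as unpaired. These shares therefore do not cover genes of lower level, other lines that respond, or paired libraries.

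Same-numbered clone N libraries of the 2 cultures deviated together (correlations 0.545, 0.571, 0.571 and 0.457 over 10066 genes, each the highest for its libraries), so the numbers were taken to pair them. The main model, the exact permutation tests and the overlap of cultures did not use this pairing. Their results treat the libraries as unpaired, and only the replicate block used the numbers. No pair of clone N replicates agreed within sampling noise (chi-square per gene 13.05 to 52.58). Genes were named by a fixed rule: the largest responses that passed without any 1 clone N library, the largest differences outside the other lines at 5 CPM or more, genes changed in clone N alone, the smallest p against the spread over lines, up to 4 genes per list for each test, and Asns, Atf4, Psph, Shmt2, Myc and Krt19. Some genes that the rule names are not reported here. Ddit3, Trib3 and Chac1 were added after their values were seen. The 35 gene lists, the markers and the comparison itself were chosen with earlier results of these data known. Promoter windows are from RefSeq (GRCm38.p6).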

Additional observations from a re-analysis of the deposited data

Results flagged for a closer look

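In groups of 4 libraries, Dixon's test marked 12 of the 200 examined (a gene's CPM in the 4 libraries of clone N in 1 culture), where chance marks about 1 in 20, or 10. In mono-culture, replicate 2 stood apart for Car6 (0.371 CPM, the others 1.35 to 1.55), Pycr1 (12.7 CPM, the others 23.8 to 24.4), and Mylip and Dennd5b (0.0742 CPM each, the others at 0). Replicate 4 stood apart for Col11a1 (0.214 CPM, the others at most 0.0815) and replicate 1 for Pogk (0.675 CPM, the others at most 0.285). In coculture, replicate 2 was high for Hsd17b7 (98.5 CPM, the others at most 58.7) and Krt19 (506.0 CPM, the others at most 375.3), and replicate 3 for Isg15 (5.59 CPM) and Trib3 (313.8 CPM). Replicate 4 was high for Cxcl10 (5.88 CPM) and replicate 1 was low for Mylip (0.541 CPM, the others at least 1.19).

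The clone N response differed from the mean of the other lines for 980 genes by the test of the difference itself. Among the genes named, clone N lay above that mean on the log2 scale for Arhgap24 (6.70), Dennd5b (5.49), Mylip (5.39), Col11a1 (4.51), Ccdc3 (4.14), Wnt5a (3.81), Lamb3 (2.08), Pogk (1.93), Thbs1 (1.87), Shroom2 (1.58), Klf2 (1.49) and Thbd (1.42). It also lay above it for Cyp26b1 (1.298), Tubb2b (1.24), Adc (1.20), Timp3 (1.15), Ptgs1 (1.13), Tgfb2 (1.13), Itgb3 (1.04), Ocln (1.01), Vcam1 (0.94), Sdc3 (0.93), Pmvk (0.79) and Vim (0.68). Smaller differences in this direction were those of Sparc (0.64), Acaca (0.62), Cdh1 (0.61), Scd1 (0.56), Srebf2 (0.50) and Srebf1 (0.41). Among the genes named, clone N lay below that mean on the log2 scale for Car6 (-4.83), Pde10a (-4.82), Bambi (-3.89), Ifit1 (-3.54), Fbn1 (-3.29), Psmb8 (-3.11), Trim30a (-3.05), Ddr2 (-2.99), Cxcl10 (-2.91), Eda2r (-2.70), Serpinf1 (-2.68) and Isg15 (-2.68). It also lay below it for Papss2 (-2.61), Fmod (-2.48), Ccl5 (-2.43), Tap1 (-2.40), Slc30a1 (-2.20), Mmp13 (-1.81), Gdf15 (-1.78), Acox2 (-1.59), Hmox1 (-1.48), Cth (-1.41), Trib3 (-1.35) and Higd1a (-1.16). Smaller differences in this direction were those of Snai2 (-1.15), Chac1 (-1.14), Ddit3 (-1.12), Sesn2 (-1.05), Pcsk6 (-0.94), Atf5 (-0.90), Stc2 (-0.87), Mettl15 (-0.80), Nle1 (-0.79), Zfp777 (-0.77), Psph (-0.63) and Atf4 (-0.52). Arhgap24 and Ccdc3 had 0 counts in clone N mono-culture, and Pde10a had 0 in mono-culture of every other line, so these fitted differences depend on the prior count and are no measured size. The clone N rise was at least 34.1-fold for Arhgap24 and at least 2.25-fold for Ccdc3.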

How the results depend on the processing

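Among the genes named, 79 responses of clone N under all alternatives gave 1314 of 1406 values with the same direction and call, 92 that no longer passed and 0 reversed. For 66 differences from the other lines, 1484 of 1646 values kept both, 155 no longer passed and 7 were reversed: on log2(RPKM + 1), with and without the filter on low values, Arhgap24 (-0.24), Shroom2 (-0.029) and Fmod (0.25), and Fmod on log2(RPKM + 0.1) (0.24). The RPKM scale adds its pseudocount to low values, and the cause was not tested. When a clone N library was left out, 64 of 79 responses and 44 of 66 differences passed in every fit.

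The count of called responses (5277) was 3326 in a fit to the 8 libraries of clone N alone (5452 with the replicate block) and 1387 when a log2 change of 1 was also required. The count of differences (980) was 625 with no filter, 1725 with the replicate block, 1513 within the larger series of sample numbers, 547 at an adjusted p of 0.05 and 309 with a log2 difference of 1, and 486 to 1549 when a clone N library was left out. Genes outside the other lines (287) numbered 457 with the replicate block, 170 at 0.05 and 167 to 563 without 1 library. Genes changed in clone N alone (2) numbered 1 with no filter, 4 with the block, 1 at 0.05 and 1 to 4 without 1 library. Against the spread over lines (0 genes), 1 gene passed without line T.

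Stress response genes with a lower difference (15) numbered 9 with no filter, 24 with the block, 2 against K, M and T, 9 without line H, 7 without line V and 6 to 21 without 1 library. Interferon-stimulated genes with a lower difference (5) numbered 3 in DESeq2, 3, 2 and 2 on RPKM (pseudocount 1, 0.1 and no filter), 2 against K, M and T, 8, 9 and 3 without line E, T and V, and 3 to 5 without 1 library. Cholesterol genes with a higher difference (5) numbered 15 with the block, 10 within the larger series, 1 against K, M and T, 3, 8 and 10 without line E, K and M, and 0 to 16 without 1 library. Fatty acid genes with a higher difference (7) numbered 4 with no filter, 4 with the series as a term, 3 on each RPKM scale, 1 against K, M and T, 3 without line E or V and 1 to 10 without 1 library. Integrin and laminin genes with a higher difference (5) numbered 8 with the block, 3 on log2(RPKM + 0.1), 3 without line V and 3 to 10 without 1 library. The fibroblast marker ratio (4.16) was 3.61 to 4.88 without 1 library. The exact permutation p was 0.0286 without a coculture library and 0.0571 without a mono-culture library (ratios 3.95 to 4.47). Among the named genes the replicate block ended the call of the Higd1a response only. Single-library counts of 0 to 3, as for Mylip and Dennd5b, are limited by depth, and the cause of the other changes was not tested.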

Other observations

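Other gene lists gave counts that are read against 20% of all tested genes higher and 17.3% lower in clone N. Collagens rose most, 17 of 22 tested with 1 fall (Col14a1), and of 16 genes of epithelial-mesenchymal transition 10 rose and 1 fell (S100a4), among them the factors Zeb2 and Snai1. Of 21 matrix proteases and inhibitors 10 rose and 2 fell. These lists share genes with the fibroblast markers, whose summed level was 4.16-fold higher in coculture. Cytokine-linked lists moved both ways: 6 of 14 chemokines rose and 2 fell, 6 of 18 NF-kB targets and cytokines rose and 2 fell, and of 14 JAK-STAT3 targets 1 rose (Timp1) and 4 fell, including the receptors Osmr and Lifr. Of 11 genes of MHC class I presentation 3 rose (H2-K1, H2-D1 and B2m) and 0 fell.

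Nrf2 targets fell more often than they rose, 7 against 3 of 20, the falls including the glutathione transferases Gsta1, Gsta3, Gsta4 and Gstm1. Of 19 chaperones and unfolded protein response genes 5 rose and 2 fell (Dnajb9 and Dnajc3), and of 15 heat shock proteins 5 rose and 0 fell. In energy metabolism, 2 of 19 glycolysis genes rose (Pfkfb3 and Aldoa) and 0 fell, 8 of 30 nuclear subunits of the respiratory chain rose and 2 fell, and of 15 hypoxia targets 1 rose and 2 fell. Among signalling lists, 4 of 15 YAP and TAZ targets, 3 of 12 Notch genes and 4 of 12 EGF family genes rose, with 0, 0 and 1 falls. TGF-beta targets (4 up, 5 down of 20), Wnt genes (5 up, 6 down of 19), p53 targets (6 up, 3 down of 19), MAPK output (1 up, 2 down of 17), immediate-early genes (2 up, 2 down of 17) and lysosomal genes (2 up, 3 down of 23) had no common direction. Genes named here outside the naming rule were chosen after their values were seen.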
